A study of Mus musculus with 6 samples.

Results

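The Dectin-2 cluster and related C-type lectins are 10 myeloid receptor genes, Clec4n, Clec4d, Clec4e, Clec4a1, Clec4a2, Clec4a3, Clec4b1, Clec7a, Clec12a and Clec5a, out of 55421 genes in the count tables. They were taken as a list of named genes, Clec4n with its chromosome 6 neighbours and other myeloid lectins, with their counts in IL-4Rα-/- and IL-4Rα+/+ monocytes already known. They were thus chosen by the difference in read counts between the genotypes, and that difference is given here as a description. Poly(A) RNA was sequenced from spleen monocytes of 3 IL-4Rα-/- mice, which lack the receptor for IL-4 and IL-13 in all tissues, and of 3 IL-4Rα+/+ mice. The strain was C57BL/6 (C57BL/6J background), no treatment is given, and each mouse gave 1 library. Monocytes were enriched by negative selection, in which antibodies and magnetic beads take out the other cells, so what was not taken out stayed in the sample. Neither the age nor the sex of the mice is in the labels.

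C-type lectin receptors bind sugars and lipids on fungi, mycobacteria and damaged cells. The activating ones signal through an immunoreceptor tyrosine-based motif, either their own or that of an adaptor such as FcRγ (Fcer1g) or DAP12 (Tyrobp), and engage the kinase Syk and then the CARD9, BCL10 and MALT1 complex, which turns on NF-κB. Others carry an inhibitory motif that recruits phosphatases such as SHP-1 (Ptpn6). Monocytes, macrophages, neutrophils and dendritic cells are their main sources.

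The 6 libraries held 26807281 to 29033297 reads on genes, and 1 read was worth 0.0344 to 0.0373 CPM (counts per 1000000 reads on genes) before scaling between libraries. Il4ra, the targeted gene, stood at 3550 to 4686 reads in the IL-4Rα+/+ libraries and at 781, 2268 and 940 reads in IL-4Rα-/- replicates 1 to 3, so IL-4Rα-/- replicate 2 kept the most of it. Which exons the knockout lacks is not given in the sources used here. Its log2 difference was -1.67 ± 0.41 (SE), and -2.30 ± 0.17 without that library. The defining monocyte gene Csf1r stood at 2225 to 3092 CPM in all 6 libraries. Xist, which marks female cells, was at 553 CPM in IL-4Rα+/+ replicate 1 and 457 CPM in IL-4Rα-/- replicate 3 and at or below 3.72 CPM in the other 4, so each genotype held 1 female and 2 male mice by this gene. IL-4Rα+/+ replicate 3 and IL-4Rα-/- replicate 2 stood apart in the summed markers of Ly6C high monocytes, the classical inflammatory subset. Their 11 markers summed to 12784 and 14407 CPM, against 2916 to 6462 CPM in the other 4 libraries, and the 12 markers of the Ly6C low, patrolling subset summed lowest there, at 5944 and 4466 CPM against 8080 to 12269 CPM.

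Of the genes, 7 lay in 1 cluster of 368 kb on chromosome 6, from 122921848 to 123289870 in GRCm38. In order along it, Clec4a1, Clec4a3, Clec4b1, Clec4a2, Clec4n and Clec4d are on the + strand and Clec4e is on the − strand at the far end. Clec4n spans 123229843 to 123247021, Clec4d 123262111 to 123275265 and Clec4e 123281789 to 123289870, so Clec4d and Clec4e end towards each other. The other lectin genes of the interval had few reads, with 61 to 110 reads per library on Clec4a4 and 1 to 5 on Clec4b2. The pseudogenes Gm44132, Gm44147 and Gm5883 and the small RNA gene Gm22946 had at most 1 read in a library. Clec12a (129342691 to 129365303) and Clec7a (129461591 to 129472779) lie farther along the same chromosome, and Clec5a (40574894 to 40585821) lies far from both. The annotation used here types Clec7a as a polymorphic pseudogene and the other 9 genes as protein coding.

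The families are close enough in sequence that reads could be shared, so each 75-base window of their transcripts, the length of a read, was looked up in the transcripts of all other genes. No window of Clec4n, Clec4d, Clec4e, Clec4a1, Clec4a3, Clec7a, Clec12a or Clec5a occurred in another gene. In Clec4a2, 3.24% of windows occurred in Clec4a4 or Clec4b1, and in Clec4b1 1.02% occurred in Clec4a2. Reads from shared windows may be missing from the counts of Clec4a2 and Clec4b1. Windows that differ by a few bases, and copies outside annotated transcripts, were not looked up, so these shares set no upper limit on the uncertainty.

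The upstream sequences of 4 genes are shown because 3 of them, Clec4d, Clec4e and Clec5a, followed the same libraries in the values below, while Clec4a1 was level in all libraries. Each is the run of 250 bases before the RefSeq start site (GRCm38.p6), 5′ to 3′ on the strand of the gene. The capitals mark GAGGAA or its reverse TTCCTC, the core letters bound by the myeloid factor PU.1. Clec4a2, which also followed those libraries, is not printed, and its window held no copy of these letters. That window lies inside the annotated gene and not before its start.

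Clec4d, chr6:123261857-123262106, + strand: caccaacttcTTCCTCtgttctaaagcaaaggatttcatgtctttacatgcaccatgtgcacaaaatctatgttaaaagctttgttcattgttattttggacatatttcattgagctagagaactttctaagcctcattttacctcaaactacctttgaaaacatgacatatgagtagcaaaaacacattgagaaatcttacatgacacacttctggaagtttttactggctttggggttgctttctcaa

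Clec4e, chr6:123289872-123290121, − strand: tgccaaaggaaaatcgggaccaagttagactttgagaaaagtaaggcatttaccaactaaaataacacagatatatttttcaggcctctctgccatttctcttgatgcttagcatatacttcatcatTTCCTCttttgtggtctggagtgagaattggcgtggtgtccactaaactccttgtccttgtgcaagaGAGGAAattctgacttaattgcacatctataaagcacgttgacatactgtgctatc

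Clec5a, chr6:40585806-40586055, − strand: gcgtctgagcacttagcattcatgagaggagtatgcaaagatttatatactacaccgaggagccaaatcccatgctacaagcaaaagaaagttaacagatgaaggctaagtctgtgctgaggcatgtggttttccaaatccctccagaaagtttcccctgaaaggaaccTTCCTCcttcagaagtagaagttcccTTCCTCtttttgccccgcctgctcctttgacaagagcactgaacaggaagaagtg

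Clec4a1, chr6:122921598-122921847, + strand: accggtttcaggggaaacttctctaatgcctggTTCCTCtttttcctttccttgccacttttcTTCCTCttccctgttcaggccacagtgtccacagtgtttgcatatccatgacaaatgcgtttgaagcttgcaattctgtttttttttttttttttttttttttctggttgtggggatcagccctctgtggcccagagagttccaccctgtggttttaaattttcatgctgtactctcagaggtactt

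RefSeq start sites were at hand for 9 of the 10 genes, in 11 windows. Clec4n was the other. The PU.1 core was found on either strand in 9 of these 11 windows and in 23.3% of 32851 windows of all genes. By gene, 8 of the 9 had it in a window, Clec4a2 being the exception, and a Clec4a3 window (122952265 to 122952514) had none. The Clec4a2 window, 123122440 to 123122689, lies inside the annotated gene, which starts at 123106428. The bases before that start were not searched. The Clec12a window, from 129349994, likewise lies inside its gene, which starts at 129342691. The nearest copy began 55 bases before the start site in Clec5a, 56 in Clec4e, 187 in Clec4a1 and 240 in Clec4d. The letters TTCNNNNGAA, the spacing preferred by STAT6, the factor that IL-4Rα activates, were found in 4 of the 11 windows and in 5.85% of all windows. These 4 windows belong to 3 genes, Clec4a1, Clec5a and Clec7a. TTCNNNGAA, the spacing of other STAT factors, was in 1 of the 9 genes, Clec4a2, and in 7.02% of all windows. TTGCNNAA or its reverse, a C/EBP type, was in Clec4e and Clec12a (9.56% of all windows), and the AP-1 type TGANTCA was in Clec12a alone (6.75%). These are matches of letters and not sites shown to be bound, and copies of different motifs may overlap.

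Clec4n encodes Dectin-2, which binds fungal mannans and pairs with FcRγ. Its normalised read counts were 89.5, 73.3 and 78.0 CPM in IL-4Rα+/+ replicates 1 to 3 and 167, 173 and 127 CPM in IL-4Rα-/- replicates 1 to 3. All 3 IL-4Rα-/- libraries stood above all 3 IL-4Rα+/+ libraries, with a gap between 89.5 and 127 CPM. The means were 80.3 ± 8.34 and 155 ± 24.8 CPM (SD, n = 3), a 1.94-fold ratio and a log2 difference of 0.95 ± 0.14 (SE). It was 0.85 to 1.16 over the 17 alternatives in processing or libraries. The female pair stood at 89.5 and 127 CPM, and the male libraries at 73.3 and 78.0 against 167 and 173 CPM, where the log2 difference was 1.16 ± 0.10. Without the 2 libraries rich in Ly6C high markers it was 0.85 ± 0.17.

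Ratios of reads inside each library, where no scaling between libraries enters, depended on the gene that Clec4n was set against. For each Clec4a1 read there were 0.189, 0.162 and 0.174 Clec4n reads in the IL-4Rα+/+ libraries and 0.362, 0.376 and 0.309 in the IL-4Rα-/- libraries. Against Clec4a3 the ratios ran from 0.161 to 0.193 and from 0.306 to 0.384. Against the more variable Clec4d and Clec4e the genotypes overlapped, with 2.69 to 13.7 and 3.00 to 12.4 Clec4n reads for each Clec4d read and 0.689 to 1.27 and 0.777 to 2.66 for each Clec4e read.

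**Figure D1:**
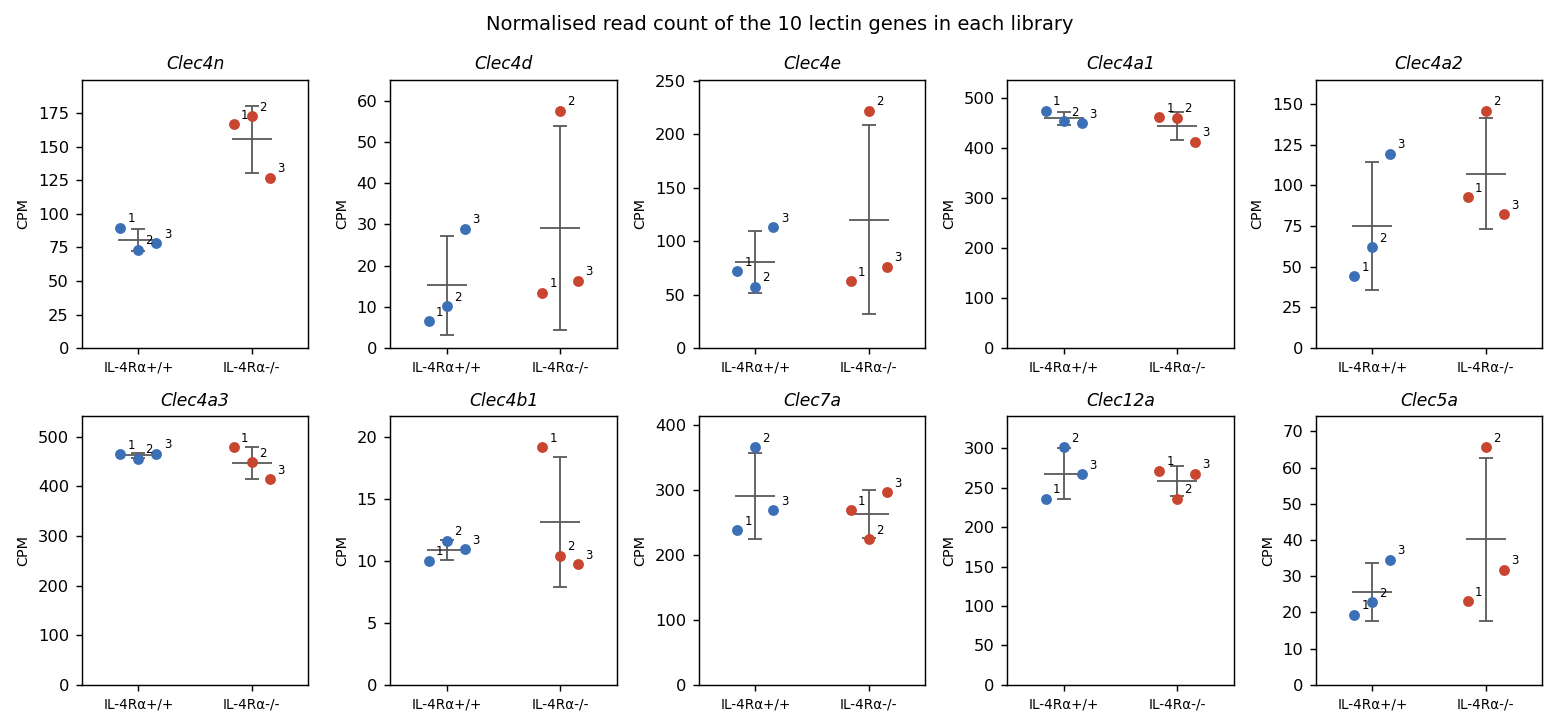
Normalised read count (CPM, linear axes from 0) of each of the 10 genes, with IL-4Rα+/+ libraries in blue and IL-4Rα-/- libraries in red. Points are single mice numbered by replicate, and the grey bars are the mean ± SD (n = 3). The 2 groups do not overlap for Clec4n, and they overlap for the other 9 genes.

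Clec4n was the only gene of the 10 whose groups did not overlap, where 15.5% of the 13849 genes tested did not overlap and 7.63% did so with IL-4Rα-/- higher and 7.87% with it lower. A log2 difference above 0 was found for 6 of the 10, against 51.5% of all genes. In edgeR, none of the 10 passed an adjusted p of 0.15, as did 0 of all genes (0%). At an unadjusted p under 0.05, 1 of the 10 passed, Clec4n, against 1120 genes (8.09%). Without IL-4Rα+/+ replicate 3, Clec4n, Clec4d and Clec4a2 passed, 3 of the 10, while the share of all genes was 12.1%. DESeq2 called 80 of 14003 genes (0.571%), and Clec4n was the 1 member among them. As this contrast chose the genes, nothing is read from these counts.

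Some marker lists of other cells were higher in IL-4Rα-/-, as Clec4n was. Of all genes, 3.72% were higher there at an unadjusted p under 0.05 in edgeR. The sums of the B and plasma cell, T and NK cell, megakaryocyte and dendritic cell lists overlapped between the genotypes. All 12 Ly6C low monocyte markers were lower in IL-4Rα-/-, with sums that overlapped. Of the 10 Ly6C high markers tested, 9 were higher there, also with sums that overlapped. No marker of these 2 lists had an unadjusted p under 0.05 in edgeR. The 12 red pulp macrophage markers were all higher in IL-4Rα-/-, 8 of them at an unadjusted p under 0.05, and summed to 4285 to 4789 CPM in IL-4Rα+/+ and 5332 to 8347 CPM in IL-4Rα-/- libraries. Spic, the factor that defines these iron-recycling macrophages, was at 103, 97.2 and 90.8 CPM and at 164, 106 and 110 CPM. The 11 erythroid markers with a matched symbol summed to 59.9 to 129.5 CPM and 172 to 430 CPM, with 11 of 11 higher and 10 at an unadjusted p under 0.05. The eosinophil, basophil and mast cell markers summed to 80.1 to 94.3 and 136 to 219 CPM, with 10 of 11 tested higher and 9 at that threshold. The libraries ranked differently within the IL-4Rα-/- group. Clec4n was highest in replicate 2, the red pulp macrophage and the basophil sums in replicate 1, and the erythroid sum in replicate 3, where Clec4n was lowest. Their part in the difference in Clec4n was not tested, and in bulk RNA a change in the number of cells of a type cannot be told apart from a change in RNA per cell.

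**Figure D2:**
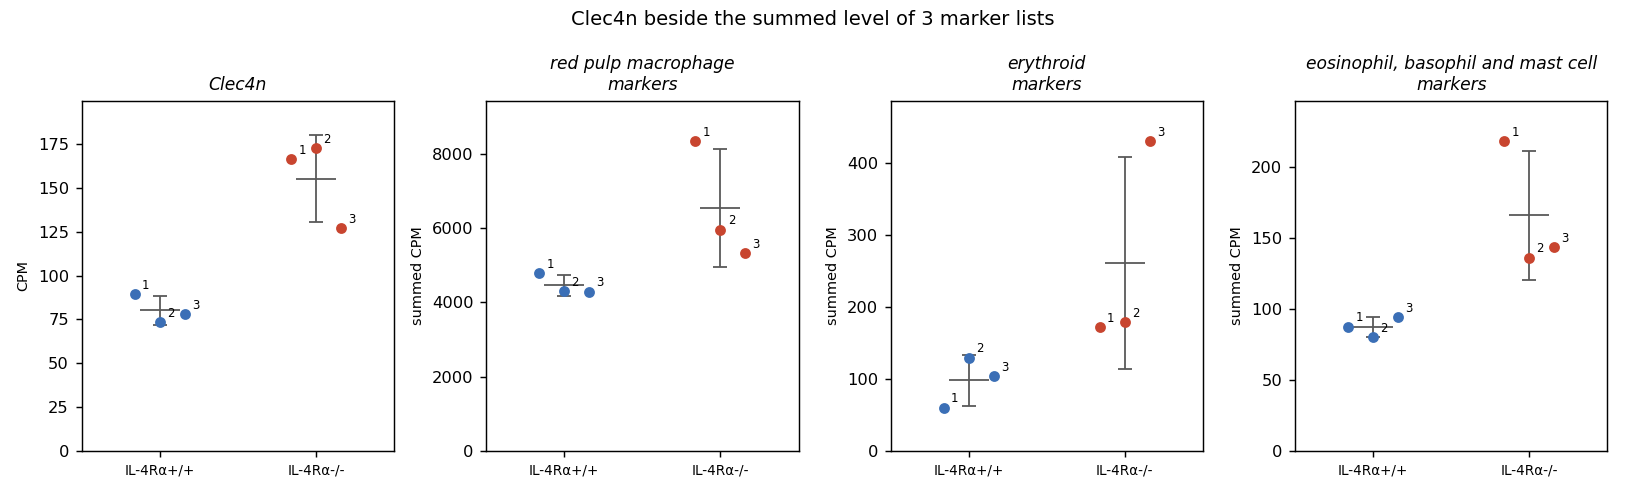
Clec4n (CPM) and the summed CPM of 3 marker lists in each library, on linear axes from 0, with points numbered by replicate and grey bars for the mean ± SD (n = 3). In all 4 panels the lowest IL-4Rα-/- library lies above the highest IL-4Rα+/+ library, while the order within IL-4Rα-/- differs between panels.

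Clec4d (MCL) and Clec4e (Mincle) encode partner receptors that form a complex with FcRγ and bind mycobacterial cord factor. Clec4d stood at 6.53, 10.1 and 29.01 CPM in IL-4Rα+/+ and 13.4, 57.6 and 16.3 CPM in IL-4Rα-/- libraries. IL-4Rα-/- replicate 2 was highest and IL-4Rα+/+ replicate 3 next, and the groups overlapped. Clec4e stood at 72.0, 57.5 and 113 CPM in IL-4Rα+/+ and 62.7, 222 and 76.1 CPM in IL-4Rα-/- libraries, again with the highest value in each genotype in those same libraries. The log2 differences were 0.94 ± 0.74 for Clec4d and 0.57 ± 0.51 for Clec4e (SE). Both depended on which library was left out. Without IL-4Rα-/- replicate 2 they were -0.03 and -0.22. Without IL-4Rα+/+ replicate 3 they were 1.81 and 0.90, and without both of these libraries 0.84 and 0.10. Clec4d had few reads, 186 to 1646 per library, and Clec4e 1590 to 6352.

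Clec5a encodes MDL-1, an activating receptor that pairs with DAP12. Its values were 19.4, 22.9 and 34.6 CPM in IL-4Rα+/+ and 23.04, 65.6 and 31.8 CPM in IL-4Rα-/- libraries, with IL-4Rα-/- replicate 2 and IL-4Rα+/+ replicate 3 highest once more. The groups overlapped, and the log2 difference of 0.65 ± 0.41 (SE) became 0.10 without IL-4Rα-/- replicate 2. Clec4a2 encodes DCIR, a receptor with an inhibitory motif. It stood at 44.1, 62.0 and 119 CPM in IL-4Rα+/+ and 92.8, 146 and 82.5 CPM in IL-4Rα-/- libraries, with a log2 difference of 0.51 ± 0.39 (SE). It was 0.22 without IL-4Rα-/- replicate 2, 0.24 without IL-4Rα+/+ replicate 1 and 1.02 without IL-4Rα+/+ replicate 3. The libraries with the most Ly6C high markers were again on top in each genotype, and IL-4Rα+/+ replicate 1, with the least, was lowest of all 6.

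These 4 genes therefore had their highest value of each genotype in the library that was also richest in Ly6C high markers. IL-4Rα+/+ replicate 1, which had the lowest Ly6C high sum, had the lowest Clec4d, Clec5a and Clec4a2 of all 6 libraries, while the lowest Clec4e was in IL-4Rα+/+ replicate 2. Ccr2, the chemokine receptor by which Ly6C high monocytes leave the marrow, ran from 380 to 2007 CPM and Ly6c2 from 242 to 591 CPM, both lowest in IL-4Rα+/+ replicate 1 and highest in IL-4Rα-/- replicate 2. Ccr2 was next highest in IL-4Rα+/+ replicate 3, at 1667 CPM. Ly6c2 did not set that library apart, at 427 CPM there against 502 CPM in IL-4Rα-/- replicate 3 and 380 CPM in IL-4Rα+/+ replicate 2. The part of these markers in the spread of the 4 genes was not tested. Leaving out both libraries gave log2 differences of 0.84 for Clec4d, 0.10 for Clec4e, 0.38 for Clec5a and 0.73 for Clec4a2, with 2 libraries on each side.

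Neutrophils also carry these lectins. Ly6g, which defines mature neutrophils, had at most 0.315 CPM in a library and Retnlg 1.32 to 4.01 CPM. Cxcr2 was low but did not overlap between the genotypes, at 1.43 to 1.70 CPM in IL-4Rα+/+ and 2.07 to 5.07 CPM in IL-4Rα-/- libraries. Other granule genes were not near 0 and had their highest level in IL-4Rα-/- replicate 2, with Mmp8 at 13.7 to 304 CPM, S100a8 at 4.45 to 91.2 CPM, S100a9 at 4.92 to 75.5 CPM and, of the precursor genes, Ngp at 2.78 to 63.2, Ltf at 1.34 to 42.6 and Camp at 0.795 to 17.6 CPM. The 14 mature neutrophil markers summed to 412 to 736 CPM in IL-4Rα+/+ and 515 to 1038 CPM in IL-4Rα-/- libraries, and the 11 precursor markers to 17.1 to 105 and 64.7 to 313 CPM. All 11 precursor markers had a log2 difference above 0, and DESeq2 called Camp. Their part in the level of Clec4d and Clec4e was not tested.

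**Figure D3:**
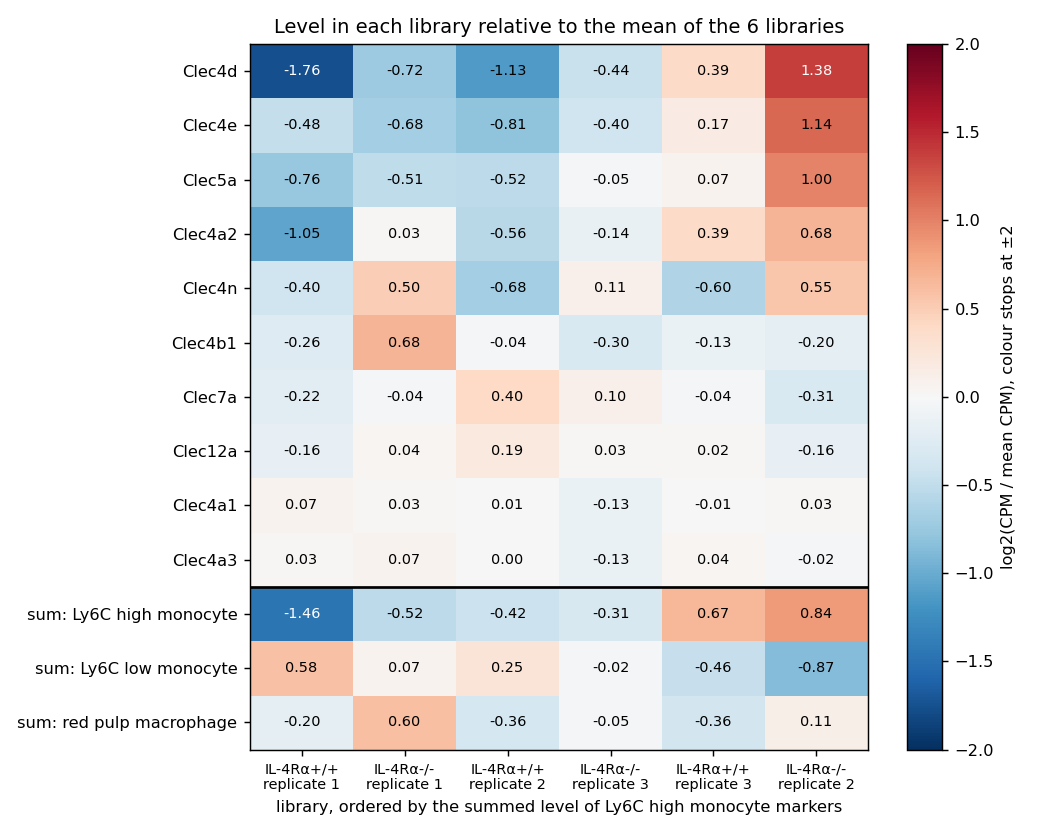
Level of each gene, and of 3 summed marker lists, in each library as log2 of its CPM over the mean of the 6 libraries, with libraries ordered from left to right by the summed level of Ly6C high monocyte markers. Clec4d, Clec4e, Clec5a and Clec4a2 are high at the right in both genotypes, Clec4n is high in the 3 IL-4Rα-/- libraries wherever they fall, and Clec4a1 and Clec4a3 are close to 0 throughout.

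Clec4a1 and Clec4a3, relatives of DCIR at the start of the cluster, were the most even. Clec4a1 stood at 474, 453 and 449 CPM in IL-4Rα+/+ and 460.3, 459.5 and 412 CPM in IL-4Rα-/- libraries, and Clec4a3 at 465, 456 and 466 and at 479, 449 and 414 CPM. The groups overlapped for both genes, with IL-4Rα-/- replicate 3 lowest. Each had a log2 difference of -0.05 ± 0.08 (SE). In every library the reads on Clec4a1 and Clec4a3 were nearly equal, with a ratio of 0.961 to 1.02. The standard deviation of log2 CPM within genotypes was 0.07 for both, which put Clec4a1 at the 16.8th and Clec4a3 at the 18.6th percentile of 8607 genes with a mean of at least 10 CPM (median 0.13). In the same cluster, it was 0.20 for Clec4n (72.0th percentile), 0.39 for Clec4b1 (91.3rd), 0.60 for Clec4a2 (97.0th), 0.78 for Clec4e (98.5th) and 1.12 for Clec4d (99.5th). Across the 368 kb the spread between mice of 1 genotype was thus from below the median gene to among the widest.

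Clec4b1 encodes DCAR, an activating receptor that pairs with FcRγ. It stood at 10.04, 11.6 and 10.9 CPM in IL-4Rα+/+ and 19.2, 10.4 and 9.77 CPM in IL-4Rα-/- libraries. IL-4Rα-/- replicate 1 stood alone above the other 5 libraries, and without it the log2 difference of 0.27 ± 0.27 (SE) became -0.11. That library also had the highest red pulp macrophage sum, 8347 CPM, and the highest Mrc1, the mannose receptor of tissue macrophages, at 403 CPM against 189 to 259 CPM elsewhere. Their part in the level of Clec4b1 was not tested.

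**Figure D4:**
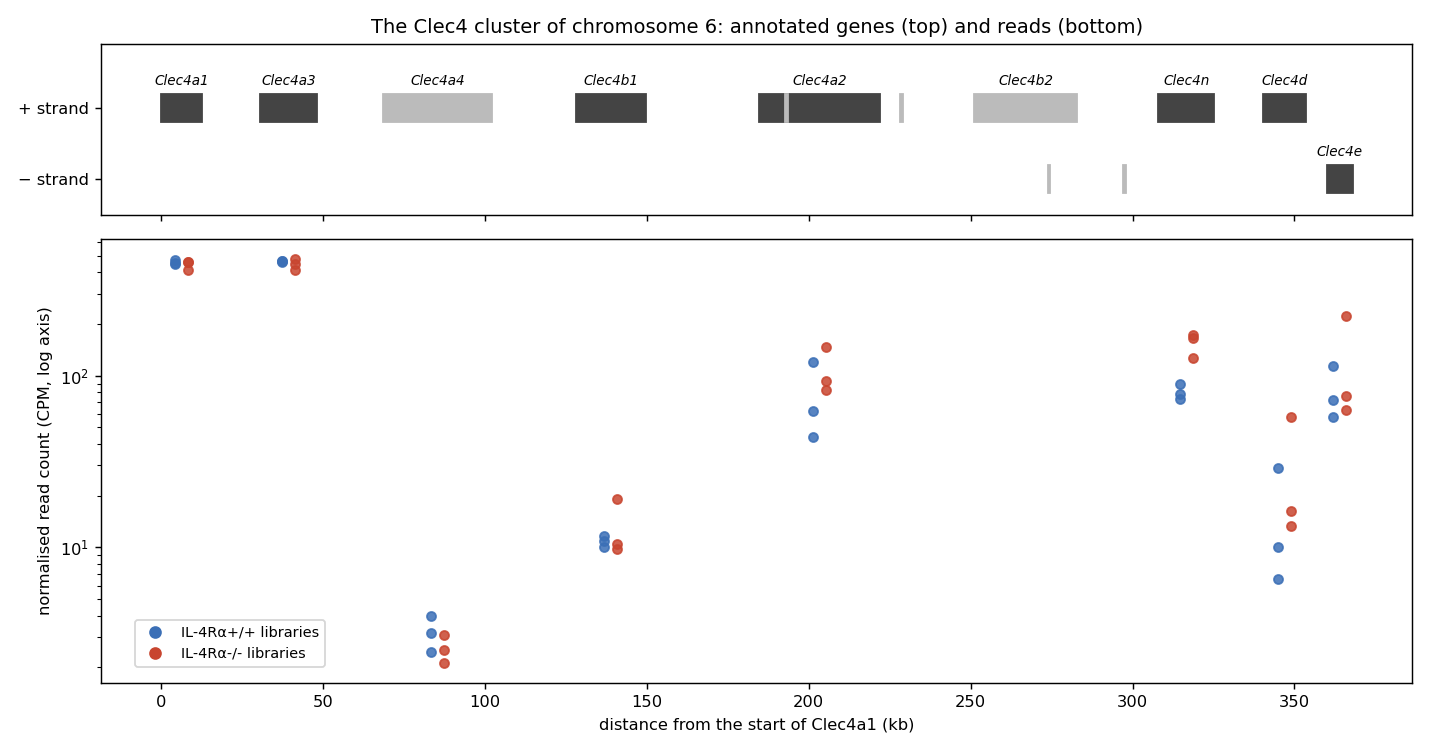
The Clec4 cluster drawn to scale, with the annotated genes by strand above (the 7 described here dark, others grey) and CPM below on a log axis, blue for IL-4Rα+/+ and red for IL-4Rα-/- libraries, against the distance in kb from the start of Clec4a1. Clec4a1 and Clec4a3 are tight between 412 and 479 CPM, Clec4n separates by genotype, and its neighbours Clec4d and Clec4e spread widely within both genotypes. Genes with at most 5 reads in a library are drawn without points.

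Clec7a encodes Dectin-1, the receptor for fungal β-glucan, which signals by its own motif, and Clec12a encodes MICL, an inhibitory receptor for uric acid crystals. Clec7a stood at 238, 366 and 269 CPM in IL-4Rα+/+ and 269, 224 and 296 CPM in IL-4Rα-/- libraries. Clec12a stood at 236, 301 and 267 CPM and at 272, 236 and 268 CPM. For both genes the groups overlapped, and IL-4Rα+/+ replicate 2 was highest while IL-4Rα+/+ replicate 1 and IL-4Rα-/- replicate 2 were lowest. The log2 differences were -0.14 ± 0.18 and -0.05 ± 0.11 (SE), and without IL-4Rα+/+ replicate 2 they were 0.05 and 0.04. Reads on Clec7a and Clec12a stayed at a ratio of 0.949 to 1.21 in the 6 libraries. Cd209a, a lectin of monocyte-derived and conventional dendritic cells, was likewise highest in IL-4Rα+/+ replicate 2, at 106 CPM, and lowest in IL-4Rα+/+ replicate 1 and IL-4Rα-/- replicate 2, at 66.5 and 70.4 CPM. Flt3, which defines dendritic cells, was highest in that same library at 94.9 CPM, against 65.3 to 86.3 CPM in the others. The 15 dendritic cell markers together did not follow the same order, since their sum was 983, 870.4 and 561 CPM in IL-4Rα+/+ and 708, 489.6 and 709.8 CPM in IL-4Rα-/- libraries, highest in IL-4Rα+/+ replicate 1. Their part in the level of Clec7a and Clec12a was not tested.

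Between genes, levels were compared per length of annotated exon, as CPM over the length in kilobases (RPKM), over the 6 mice of both genotypes. Clec4a3 was highest at 343 ± 16.8 RPKM (SD, n = 6), followed by Clec4a1 at 290 ± 13.6, Clec7a at 105 ± 19.1 and Clec4n at 83.0 ± 31.2. Clec12a (47.6 ± 4.47), Clec4a2 (31.1 ± 12.7) and Clec4e (20.3 ± 12.6) came next. Lowest were Clec4b1 at 15.3 ± 4.57, Clec4d at 13.9 ± 11.9 and Clec5a at 8.56 ± 4.44 RPKM. Clec4n had a mean of 56.5 ± 5.87 RPKM in IL-4Rα+/+ and of 109 ± 17.5 RPKM in IL-4Rα-/- mice, beside 110 ± 25.2 and 99.8 ± 13.8 RPKM for Clec7a (SD, n = 3). Its values lay below those of Clec7a in each IL-4Rα+/+ library, and the 2 genes overlapped in the IL-4Rα-/- libraries.

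Neighbours in that order were compared by the difference in log2(RPKM + 0.1) within each library. Clec4a3 was above Clec4a1 by 0.24 ± 0.04 (SD), Clec4a1 above Clec7a by 1.48 ± 0.28 and Clec4a2 above Clec4e by 0.69 ± 0.48, each in 6 of 6 libraries. These 3 pairs had p = 0.03125 in a two-sided exact sign flip permutation test, the smallest that 6 mice can give, and an adjusted p of 0.09375 over the 9 pairs. For Clec4a3 and Clec4a1 the reads were nearly equal, with 0.961 to 1.02 Clec4a1 reads for each Clec4a3 read. Their difference lies mainly in the annotated lengths, 1327 and 1558 bases, which are the same in every library. The 6 of 6 libraries of this pair thus largely reflect the annotation. Clec4n was above Clec12a and Clec12a above Clec4a2 in 5 of 6 libraries each, by 0.72 ± 0.61 and 0.71 ± 0.65 (exact permutation adjusted p = 0.1125 for both). For the other 4 pairs the adjusted p was 0.1875 to 0.5625 in the same exact test. No neighbouring pair passed 0.05 after adjustment. With 0.03125 as the smallest p, passing needs most of the 9 pairs to reach it, so this test cannot decide on single pairs. The ranges of Clec4a3, Clec4a1 and Clec7a did not overlap over the 6 libraries, though between Clec4a3 and Clec4a1 this too rests on the annotated lengths. Clec4a3 was at or above 312 RPKM, Clec4a1 ran from 264 to 304 RPKM and Clec7a was at or below 139 RPKM. From Clec7a down the ranges of neighbours overlapped, and the fine order there is not settled by these 6 mice.

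**Figure D5:**
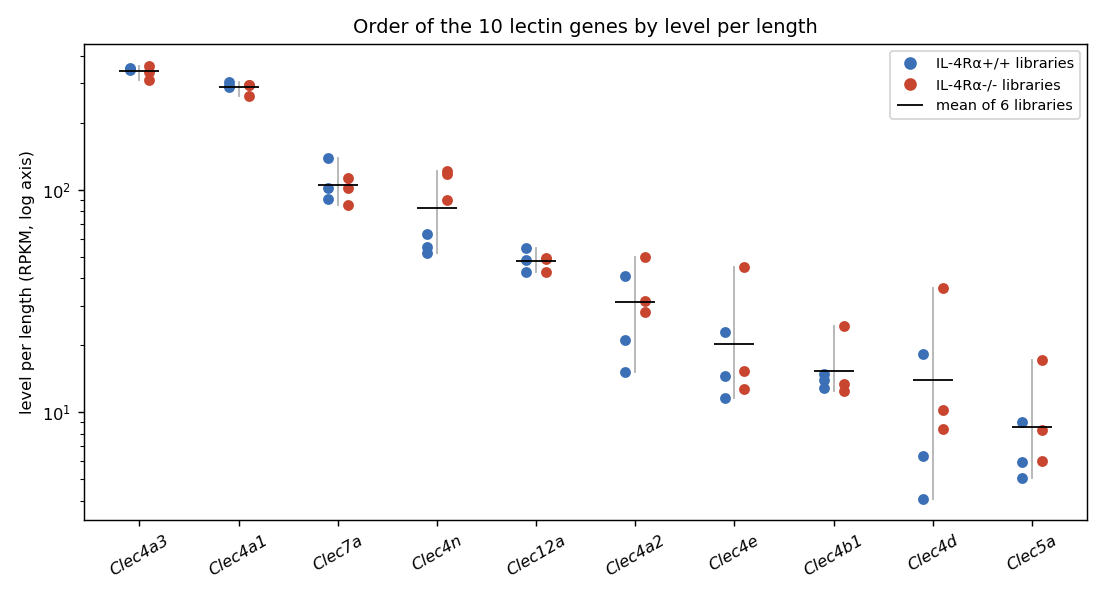
Level per length (RPKM, log axis) of the 10 genes in order of their mean, with IL-4Rα+/+ libraries in blue, IL-4Rα-/- libraries in red, the grey line from the lowest to the highest library and the black bar at the mean of 6. Clec4a3 and Clec4a1 lie above the others in every library, and from Clec7a down the values overlap from gene to gene.

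Of the adaptors of these receptors, Fcer1g and Tyrobp were abundant and Hcst was not. Fcer1g stood at 640, 587 and 609 CPM in IL-4Rα+/+ and 660, 700 and 637 CPM in IL-4Rα-/- libraries, with a log2 difference of 0.12 ± 0.07 (SE). Tyrobp ran from 904 to 952 and from 969 to 1061 CPM (0.11 ± 0.07), without overlap, and Hcst, the DAP10 adaptor, from 9.58 to 13.3 CPM over all 6 (0.09 ± 0.17). Syk ran from 854 to 1070 CPM in IL-4Rα+/+ and from 754 to 849 CPM in IL-4Rα-/- libraries (-0.22 ± 0.11), also without overlap. The signs for Fcer1g and Tyrobp were not stable, since taking out the trend with transcript length gave -0.01 and -0.02.

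Of the CARD9 complex, Card9 ran from 183 to 254 CPM (0.04 ± 0.16), Bcl10 from 101 to 107 CPM (-0.00 ± 0.07) and Malt1 from 103 to 202 CPM (-0.34 ± 0.19, SE). Card9 was highest in IL-4Rα-/- replicate 2 and IL-4Rα+/+ replicate 3, the libraries in which Clec4d and Clec4e were highest, and Malt1 was lowest in those same libraries. Ptpn6, the phosphatase of the inhibitory members, ran from 878 to 1011 CPM (0.00 ± 0.08).

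Over the signalling lists, no gene passed an adjusted p of 0.15 in edgeR or in DESeq2. Of 15 adaptors and kinases, 5 had a log2 difference above 0 (median -0.11), of 19 genes of the CARD9 complex and NF-κB 2 did (median -0.16), and of 13 phosphatases and brakes 5 did (median -0.13). The 15 induced cytokines and early genes that could be tested, of 21, had 11 above 0 (median 0.14), and the 31 testable other C-type lectins, of 42, had 11 (median -0.08). At an unadjusted p under 0.05 there were 8 of the 93 genes (8.6%), a share near the 8.09% of all genes. All 8 were lower in IL-4Rα-/-, where 4.37% of all genes were lower and 3.72% higher at that threshold. Among them were the signalling genes Plcg2 (-0.18), Vav3 (-0.36), Chuk (-0.25), Rel (-0.53) and Nfatc1 (-0.27), the ubiquitin ligase Cbl (-0.26), and Clec4g (-1.15), a lectin at 0.270 to 1.09 CPM. The number was 2 without IL-4Rα+/+ replicate 2 or IL-4Rα-/- replicate 2, 4 without replicate 1 of either genotype and 22 without IL-4Rα+/+ replicate 3. It was also 4 with upper quartile factors or with library size alone as the scaling, and 12 in DESeq2.

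Among the lectins outside the 10, 16 had a mean of at least 10 CPM, and none was called in either tool. Cd93 ran from 84.1 to 311 CPM and Cd302 from 63.9 to 133 CPM, both highest in IL-4Rα-/- replicate 2, as were Clec4d and Clec4e. Thbd, thrombomodulin, was lowest there at 71.4 CPM and highest in IL-4Rα+/+ replicate 1 at 216 CPM, and so opposite to Clec4d. Clec9a and Ly75, receptors of cross-presenting dendritic cells, ran from 4.51 to 22.8 and from 7.21 to 23.6 CPM and were also lowest in IL-4Rα-/- replicate 2. Clec10a (35.4 to 64.6 CPM), Klra2 (203 to 331 CPM), Clec2d (87.3 to 162 CPM), Clec2i (65.7 to 140.0 CPM), Clec16a (26.9 to 36.1 CPM), Clec1b (8.34 to 20.1 CPM), Klrk1 (9.62 to 29.6 CPM) and Cd72 (6.34 to 17.8 CPM) overlapped between the genotypes.

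The genes whose log2 CPM followed Clec4n most closely over the 6 libraries, out of 8607 with a mean of at least 10 CPM, were Psmd10 (Pearson r = 0.993), Ppia (0.987), Eloc (0.985), Rps7 (0.985) and Hist1h2bc (0.984). They encode a proteasome chaperone, cyclophilin A, elongin C, a ribosomal protein and a histone, and no other lectin was among them. All 5 were higher in each IL-4Rα-/- library than in any IL-4Rα+/+ library, as Clec4n was, but by less. Ppia stood at 284 to 307 and 333 to 349 CPM, and Hist1h2bc at 6.83 to 9.51 and 11.7 to 16.7 CPM. The log2 differences were 0.20 for Psmd10, 0.23 for Ppia, 0.20 for Eloc, 0.10 for Rps7 and 0.85 for Hist1h2bc, against 0.95 for Clec4n. The 6 points share their libraries and depth, and with so many genes and so few points the likeness is a description only.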

How the data were processed

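Monocytes enriched from the spleens of 6 mice, 3 of each genotype, were sequenced as single-end reads of 75 bases from directional poly(A) libraries. The values deposited by the authors are raw read counts per gene, made with STAR 2.6.1a on GRCm38 after bcl2fastq 2.19.1.403, and the submitters' processing notes also name RSEM and DESeq2 1.22.2. The counts used are those of the second column, and whether it ignores strand is not given in the sources used here. The 10 genes and all lists were chosen with earlier results of these data known. Of 55421 gene IDs, 55240 were matched to GENCODE vM21 symbols, positions and exon lengths, while the study names the mV23 annotation. STAR's summary lines, 21.1 to 22.8% of all reads, were left out. Of the marker symbols, Ahsp was not matched.

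Counts were tested with edgeR 4.0.16 (filterByExpr minimum count 10, TMM, quasi-likelihood test, Benjamini-Hochberg over 13849 genes, threshold 0.15) in R 4.3.3, with DESeq2 1.42.0 as an alternative. Each log2 difference is IL-4Rα-/- minus IL-4Rα+/+. The procedure was tested on simulated data. CPM used TMM library sizes, log2 CPM a prior count of 2, and RPKM the union of exons with a pseudocount of 0.1. Named were the 10 genes, Il4ra, set signalling genes, list genes with an unadjusted p under 0.05, other lectins with a mean of 10 CPM or more, the 5 genes most like Clec4n, the genes of the cluster and set markers, and some genes that this rule takes are not reported here. Each library is 1 mouse, and 3 mice per genotype limit the precision of each mean.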

Additional observations from a re-analysis of the deposited data

How the results depend on the processing

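With DESeq2 in place of edgeR, 1 of the 10 genes (Clec4n) and 80 genes in all were called, against 0 and 0. None of these other settings called a gene: other scaling, count filters, an Xist term, removal of the length trend, the threshold of 0.05, or leaving out 1 library at a time, where both counts stayed at 0 to 0. Leaving out the 2 libraries with the highest Ly6C high sums, an alternative chosen after seeing the data, called 1 gene, Il4ra (log2 difference -2.15), and the male libraries alone, likewise chosen afterwards, called 0. With replicate numbers fitted as a block, no gene passed (0) and the log2 difference of Clec4n was 0.94 ± 0.13 (SE), so pairing changed no call, while 4 of the 93 signalling and lectin genes had an unadjusted p under 0.05 in place of 8. The deviations of same-numbered replicates correlated at r = 0.185, -0.271 and -0.296 across genes, not positively in all 3 pairs, so the numbers were not taken as pairs. The range for Clec4n over the 17 alternatives was 0.85 to 1.16, while Clec4d (-0.03 to 1.81), Clec4e (-0.22 to 0.90) and Clec4b1 (-0.11 to 0.45) changed sign. Clec4a1 (-0.14 to 0.03), Clec4a3 (-0.15 to 0.01), Clec7a (-0.37 to 0.05) and Clec12a (-0.17 to 0.04) changed sign as well. With the length trend removed, Clec4a1 and Clec4a3 were at -0.14 and -0.15. With the longest transcript as length, Clec4n lay below Clec12a (log2 difference -0.038) in place of above it. No neighbouring pair passed under either length or with a pseudocount of 1, where the smallest p with 6 mice was again 0.03125 (exact permutation). With 5 mice that test cannot pass 0.05 (smallest p 0.0625, exact permutation). With rlog values, 3 of the 5 genes most like Clec4n were the same. Clec4d and Clec4b1 had the fewest reads, 186 to 1646 and 286 to 538, and Clec4d and Clec4e the largest SE.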
